A study of Homo sapiens with 12 samples.

Results

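N6-methyladenosine (m6A) was compared between NOMO-1 cells that carried guide sgMETTL16-1 and cells that carried the control guide sgNS. NOMO-1 is a human acute myeloid leukaemia line with monocytic features. The members are every window of the 2 tables that the authors deposited for this guide, 79372 in table A and 71406 in table B, which makes 150778 of the 296568 windows deposited for the series. No measured value was used to choose them. Table A and table B are names given here to the tables that the authors numbered 1 and 2, and nothing says that these numbers are those of the replicates in the labels.

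The cells of both groups were infected with lentivirus and kept in puromycin for 1 to 2 weeks, and the knockout cells are an infected and selected population, for which the labels name no single clone. Sequencing covered the poly(A) RNA itself (input) and the part of it pulled down by an anti-m6A antibody (immunoprecipitate, IP), with 2 input and 2 IP libraries for each guide, or 8 of the 12 libraries of the series. The remaining guide, sgMETTL16-2, is used below only for values set side by side. Nothing in the labels says that the libraries came from separate cultures, so the spread between the tables may be technical.

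METTL16 is a methyltransferase that places m6A on U6 small nuclear RNA and on hairpins of the messenger RNA of MAT2A, the enzyme that makes S-adenosylmethionine, the methyl donor of all m6A. Most m6A on messenger RNA is placed by the METTL3 and METTL14 complex, typically near stop codons and in long exons. In m6A IP sequencing a methylated stretch gives more IP than input reads, and a window's change is the change of that ratio, so that a change of transcript level alone should cancel out.

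For every window the authors deposited the ratio of IP to input, called fold enrichment here, and the log2 fold change of m6A between knockout and sgNS cells. Values below 0 are taken to mean that the knockout had less m6A, which is how programs with such columns write it, though the tables do not say so. Were the sign the other way, lower and higher would swap throughout. Calls of lower or higher rest on an authors' false discovery rate (FDR) for the difference below 0.05, and enriched means the same limit for IP against input. The tables hold no value per library, so sequencing depth is unknown, and fold changes are printed without SD or n. The only repetition is that of the 2 tables, and which libraries entered each table is unknown here.

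Windows in the authors' deposited tables lay on 15212 genes in table A and 14872 in table B, of which 14171 are in both. All 10 of the myeloid markers looked for (among them CD33, CD68, LYZ and MPO) had a window in each table, and 6 had an enriched one, whereas 3 of 6 lymphoid markers had a window and 0 an enriched one. On a longer list of 16 lymphoid genes, 9 and 8 had a window and 1 an enriched one in each table. Of 5 erythroid markers only KLF1 had a window, and it was enriched in both tables. On a longer list of 13 erythroid genes, 4 had a window in each table, and 1 had an enriched one in table A and 2 in table B. These counts describe where windows lie and are no measure of RNA level.

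Several of the called windows reach the first transcribed bases of a gene, where the RefSeq start is known to the base. The 6 such genes below, picked after their values were seen, are shown by their first 30 transcribed bases in GRCh38.p14 from RefSeq, with GGAC, the core of the common m6A motif, in capitals where it occurs on the transcribed strand.
CEBPA (chr19:33302505-33302534, minus strand): attcgcgacccggaggtgcgcgggcgcggg
TMEM259 (chr19:1021094-1021123, minus strand): gagaaagcggaagatggcggcggcggccgg
PTMA (chr2:231708525-231708554, plus strand): cccccactggctgctctgaaaagccatctt
HNRNPU (chr1:244864514-244864543, minus strand): gaGGACgttgcgtgctcgctcgcgccaggc
LAPTM5 (chr1:30757745-30757774, minus strand): agtgtctcagaggaggGGACggcagcacca
ARPC3 (chr12:110450308-110450337, minus strand): gcccaggctgccagaccggaagcgctccgc
GGAC stands in 2 of these 6 stretches, and in the first 30 bases of 11% of the 22114 genes of the RefSeq promoter table. CEBPA and TMEM259 were called higher in both tables, PTMA lower in table A and higher in table B, HNRNPU higher in table B, and LAPTM5 and ARPC3 lower in table B. Genes with and without the letters are thus found on both sides, and a match is not evidence of a methylated site.

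Table A leaned to losses of m6A and table B to gains. In the authors' deposited table A, 223 windows were called lower (0.281% of all) and 59 higher (0.0743%), on 211 (1.39%) and 56 (0.368%) genes. Of enriched windows these were 2.79% and 0.809%. The authors' deposited table B held 119 windows called lower (0.167%) and 416 called higher (0.583%), on 113 (0.76%) and 374 (2.51%) genes, and 0.766% and 4.64% of enriched windows. The median log2 fold change of enriched windows was -0.04 in the authors' deposited table A and 0.13 in table B. After each table was shifted by that median, with two-sided p-values, the counts were 114 lower and 54 higher in table A. In table B they were 149 lower and 86 higher, so with this shift its lean to gains turned into one to losses. Over all windows, enriched or not, the median was 0.00 in the authors' deposited table A and 0.00 in table B. The shift moved windows that were not enriched too, and whether it suits those was not tested. Counts after the shift given below carry the same limit. Two-sided p-values with no shift gave 174 and 43 in table A and 77 and 300 in table B.

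Most changes were small. The median log2 fold change of called windows was -0.48 (lower) and 0.62 (higher) in the authors' deposited table A, and -0.93 and 0.41 in table B. A change of at least 1 on the log2 scale was reached by 26 lower and 11 higher windows of table A and by 54 lower and 29 higher windows of table B. Of 20031 windows that could be matched 1 to 1 between the tables, 25.2% of table A and 28.1% of table B, 9 were called lower in both (0.0449%), 4 higher in both (0.02%) and 20 in opposite directions (0.0998%).

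**Figure D1:**
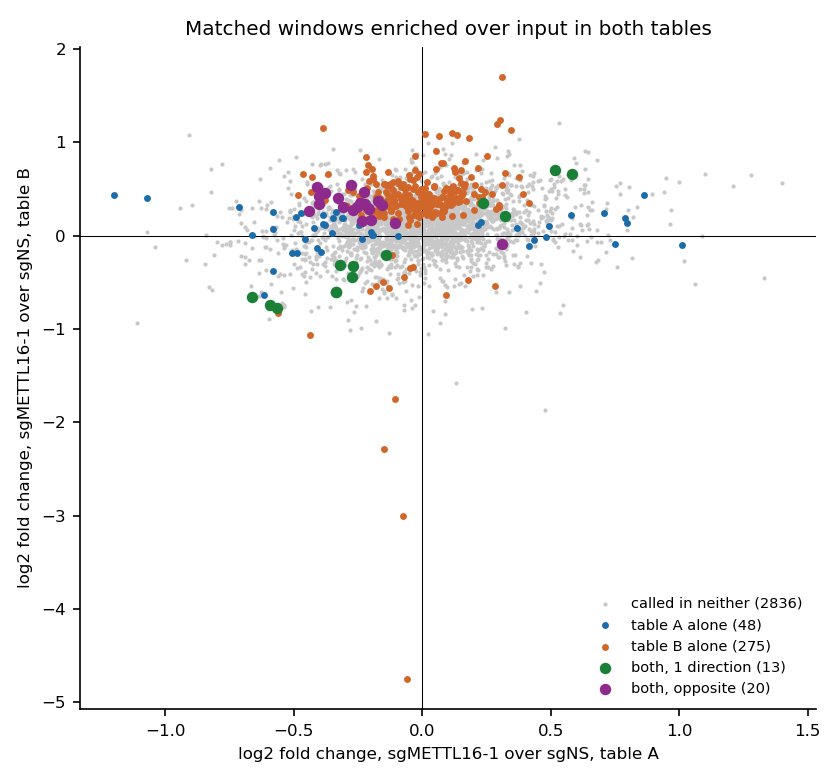
Log2 fold change of sgMETTL16-1 over sgNS in table B against table A, for the 3192 matched windows enriched over input in both tables, 1 point per window, coloured by call. The 275 windows called in table B alone lie mostly above 0 on the vertical axis and on both sides of 0 on the horizontal one, and the 3 lowest points on the vertical axis (RPS23, RPL15 and FAM166A), called in table B alone, are close to 0 in table A.

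METTL16 had 7 windows in each table and none was called. Its only enriched window (chr17:2420009-2420458), was at -0.12 (FDR = 0.658) in the authors' deposited table B, and the overlapping window of table A (chr17:2419949-2420548) was at -0.60 (FDR = 0.635) and not enriched. These values do not measure how much METTL16 RNA was left and do not check the knockout. MAT2A was called lower at its 3′ end in both of the authors' deposited tables, at -0.71 (FDR = 5.37e-05, chr2:85544625-85545161) and at -0.81 (FDR = 0.0151, chr2:85544923-85545161), windows that end 120 bases before the RefSeq gene end. Neither 3′ window was enriched, and the 2 overlap by less than 0.5 of the longer one, so they are not counted among matched windows. The other 4 MAT2A windows were not called, and the only enriched one (chr2:85543703-85543941) was at 0.11 in the authors' deposited table A.

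Both tables gave the same call for 13 windows, lower for 9 and higher for 4. Lower windows lay on EIF4A1 (the helicase of cap-dependent initiation) and its second listing SENP3-EIF4A1, on UPF3B (nonsense-mediated decay), SRSF11 (splicing), TPT1 (a growth-related protein), RPL32, RPL37A, and on XAGE1B and XAGE1E, which share 1 window. Higher windows lay on CEBPA (the transcription factor of granulocyte and monocyte fate), IL4R (the interleukin 4 receptor), PTPN7 (a phosphatase of MAP kinases) and TMEM259 (membralin, of the endoplasmic reticulum). Their log2 fold changes spanned -0.14 to -0.66 (lower) and 0.24 to 0.58 (higher) in the authors' deposited table A, and -0.21 to -0.78 and 0.21 to 0.70 in table B. After the shift, with two-sided p-values, PTPN7, IL4R and TMEM259 lost their call in table B, and RPL37A, XAGE1B and XAGE1E theirs in table A, so that CEBPA alone was left on the higher side. Two-sided p-values with no shift ended the calls of PTPN7 and UPF3B in table B and of IL4R in table A. PTPN7's window ends at the RefSeq 3′ end of its gene (chr1:202147013-202148117), IL4R's ends 270 bases before it (chr16:27363189-27364508), and CEBPA's begins at or 30 bases before the RefSeq start of its single block (chr19:33301040-33302564).

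At the level of genes, with any of a gene's windows allowed to carry the call, 20 genes were called lower in both tables and 13 higher in both. Beyond those above, the lower ones included B2M, HNRNPA2B1, KBTBD11, MALAT1, MAT2A, NEAT1, PNISR, RPL30, SLTM and TOP2A. The higher ones were DKC1, EEF2, ENO1, HMGB2, IRF2BP2, MYH9, NCL, P4HB and RPL8. HNRNPA2B1, EEF2, MYH9 and NCL also had calls in the other direction, which leaves 19 lower and 10 higher genes with calls in 1 direction.

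In several of these genes the calls sat on different stretches of the transcript. PNISR, a splicing-associated protein, was at -0.78 and -0.51 in the authors' deposited table A in 2 enriched windows and at -2.08 in table B in a window of 91 bases (chr6:99401490-99401580) that was not enriched. TOP2A, the DNA topoisomerase of mitosis, was at -0.35 over 5 blocks in the authors' deposited table A. In table B it was at -1.29 in a window of 61 bases that was not enriched. SLTM, a chromatin-bound RNA-binding protein, was at -0.57 and -1.10 in the authors' deposited tables, in windows that do not overlap and of which neither was enriched. DKC1, the pseudouridine synthase of ribosomal RNA, was at 1.08 (121 bases, FDR = 0.0457) in the authors' deposited table A and at 0.53 (FDR = 1.26e-07) in another window in table B, which was at -0.14 in table A. A gene in the list of both tables therefore does not stand for a repeated site.

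P4HB, the beta subunit of prolyl hydroxylase and a protein disulphide isomerase, had 4 enriched windows in each table, and its strongest call lay in the 5′ part in table A and at the 3′ end in table B. In the authors' deposited table A the 5′ window (chr17:81855506-81859220) was at 0.74 (FDR = 1.26e-19) and the 3′ one (chr17:81843158-81843398) at 0.12 (FDR = 0.655). The authors' deposited table B gave -0.11 (FDR = 0.191) for a longer window over the 5′ part and 1.10 (FDR = 2.51e-31) for the 3′ one. The 3′ window differed between the tables, with a difference of 0.99 ± 0.11 (standard error from the deposited p-values) and an adjusted p of 3.51e-16 (normal approximation, Benjamini-Hochberg over 9264 matched windows with an error in both tables).

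Of the 20 windows called in opposite directions, 19 were lower in table A and higher in table B. Opposite calls fix the outcome of the test of the difference, so it is not given for these 20. They lay on splicing genes (SFPQ, RBM25, LUC7L3, PRPF38B), on the m6A writer subunit ZC3H13, on chaperones (CALR, HSP90AB1, HSP90B1), on ribosomal protein genes (RPL19, RPL36, RPS3, RPS4X), on chromatin and replication genes (ANP32E, PTMA, MCM3), on SERP1, RSL1D1 and CLTA, and on the long non-coding RNA LINC00926. CALR, the calcium-binding chaperone of the endoplasmic reticulum, was at -0.17 (FDR = 2.45e-07) in the authors' deposited table A and at 0.37 (FDR = 6.31e-37) in table B, over nearly the same bases (chr19:12943571-12944251). The difference was 0.54 ± 0.04. ZC3H13 went from -0.41 to 0.52 in the authors' deposited tables, the widest gap of the 20, and RPL19, from -0.11 to 0.14, had the narrowest.

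EEF2, the factor that moves the ribosome along the messenger RNA, was the exception, at 0.31 in the authors' deposited table A and -0.09 (FDR = 0.0389) in table B. Within the authors' deposited table B its 4 called windows alternated along the gene, at 0.12, -0.09, 0.14 and -0.26 from the 3′ to the 5′ side. After the shift by the enriched median, with two-sided p-values, 5 of the 20 kept both opposite calls by window count, and with two-sided p-values alone 19 did.

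**Figure D2:**
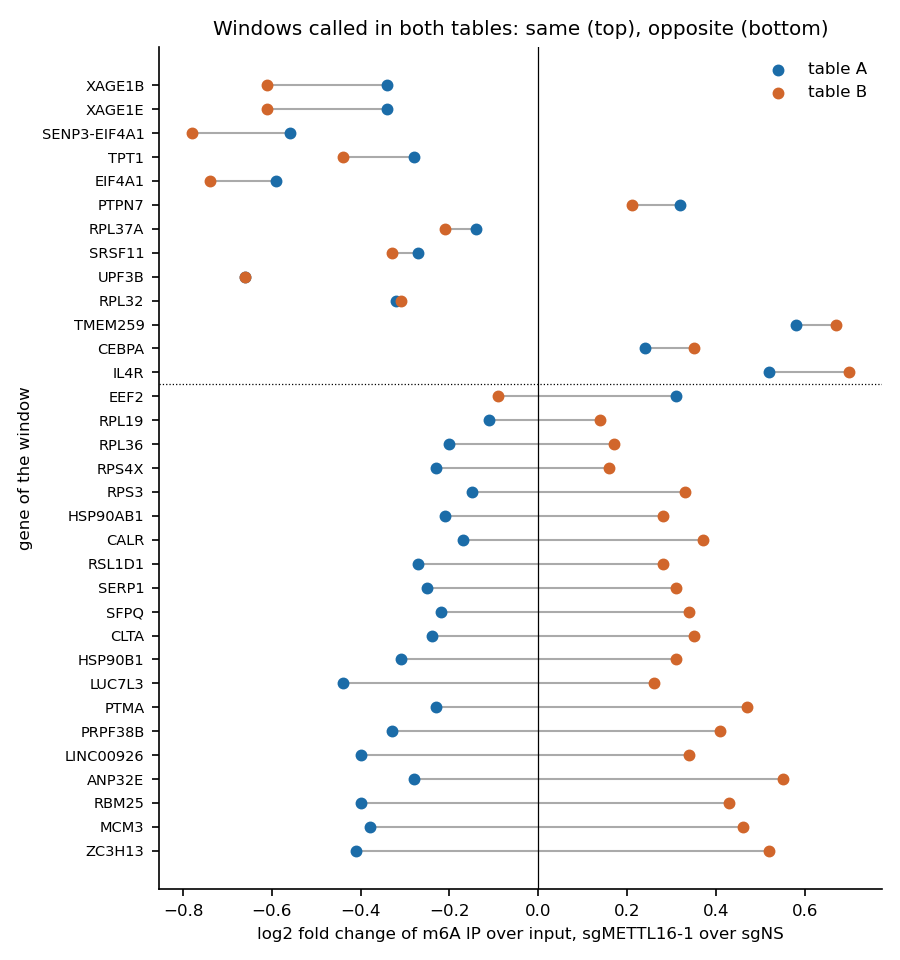
Log2 fold change in table A and table B of the 33 matched windows called in both tables, 1 line per window with its gene, the 13 of 1 direction above the dotted line and the 20 of opposite directions below. Below the line, table B lies right of table A in every window except that of EEF2. The table A point of UPF3B, at -0.66 like that of table B, is hidden behind it.

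Most calls of 1 table were not called in the other where the same window could be found there. Over all windows the shares called were 0.281% lower and 0.0743% higher in table A, and 0.167% and 0.583% in table B. Of the 223 windows called lower in table A, 78 were matched, and in table B 9 of these were lower, 19 higher and 50 not called, with a median of 0.10 in the authors' deposited table B. Of the 416 called higher in table B, 307 were matched, and in table A 4 were higher, 19 lower and 284 not called, with a median of -0.03 in the authors' deposited table A. Windows called lower in table B (43 matched, 9 lower, 1 higher and 33 not called) and higher in table A (24 matched, 4 higher, 1 lower and 19 not called) had medians in the other of the authors' deposited tables of -0.13 and 0.13.

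A call in 1 table alone does not show that the tables differ, and for most such windows the test of the difference did not pass. In all, 246 of 9264 windows differed, 224 higher (2.42%) and 22 lower (0.237%) in table B than in table A. These hold 164 of the 386 matched windows called in 1 table alone and 62 that neither table called. They also hold the 20 windows of opposite calls, for which the outcome was fixed beforehand. After the shift the numbers were 61 higher and 47 lower in table B. The test takes its errors from the deposited p-values, which carry counting error within a table and no spread between cultures.

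The largest differences were falls in table B on 2 ribosomal protein transcripts that table A left near 0. RPS23, a protein of the small ribosomal subunit at the decoding centre, was at -4.75 (FDR = 2.51e-24) in the authors' deposited table B and at -0.06 (FDR = 0.655) in table A, over the same 120 bases (chr5:82276066-82276185). RPL15, of the large subunit, was at -3.00 (FDR = 5.01e-92, chr3:23918018-23921605, 4 blocks) in the authors' deposited table B and at -0.08 in table A. The RPS23 difference of -4.69 ± 0.46 had an adjusted p of 7.48e-21, and that of RPL15, -2.92 ± 0.17, one of 3.85e-59.

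The tables of the second guide, which carry the same numbers and are named A and B in the same way, showed these falls in table B and not in table A, side by side and chosen after the values were seen. For sgMETTL16-2 the authors' deposited table B gave -3.46 for RPS23 and -2.81 for RPL15, and the authors' deposited table A gave -0.01 for RPS23 and -0.15 for RPL15. If the tables of 1 number used the same sgNS libraries, these values are not independent of those of sgMETTL16-1. The knockout and the sgNS libraries cannot be told apart as the source from these tables.

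FAM166A was at -2.29 in the authors' deposited table B and -0.15 in table A. CTSG, cathepsin G of myeloid granules, fell less, at -0.34 (FDR = 1.26e-22) in the authors' deposited table B with -0.04 for table A (difference -0.30 ± 0.04, adjusted p = 3.39e-10). Its 2 other windows, on both sides, were not called in either table, at 0.14 and 0.08 in the authors' deposited table B. Chitinase-like CHI3L1, a secreted protein of monocytes and macrophages, was at -0.47 in the authors' deposited table B and at 0.18 in the same window of table A, while another window of the gene was called higher there at 0.35.

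Table A had its own large losses. RBMX, an X-linked RNA-binding protein of splicing, was at -1.97 (FDR = 7.94e-21) over 4 blocks (chrX:136875151-136879026), with a fold enrichment of 2.29 in the authors' deposited table A. Table B lists 1 window on RBMX, at the other end of the gene. In the authors' deposited table A of sgMETTL16-2 nearly the same RBMX window was at -2.36 (FDR = 1e-27), a value given side by side.

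RPL34 was at -1.09 (FDR = 7.94e-42, chr4:108622591-108625247) and GAPDH, of glycolysis, at -0.68 (FDR = 7.94e-42) in the authors' deposited table A, with fold enrichments of 1.08 and 1.3. RPL34 differed between the tables (adjusted p = 1.94e-08), with -0.16 in the authors' deposited table B. CXCR4, the chemokine receptor that holds leukaemia cells in the marrow, was at -1.22 (FDR = 6.31e-11) over 90 bases that end 90 bases before its 3′ end, beside a window of 1345 bases at 0.00 in the authors' deposited table A.

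Other windows among the 10 largest falls in the authors' deposited table A were those of SH3BGRL (-1.99), RB1CC1 (-1.77, an autophagy initiation protein), CMTM6 (-1.70, which keeps PD-L1 at the cell surface), DNAJC2 (-1.57), MTHFD2 (-1.50, mitochondrial one-carbon metabolism), RSL24D1 (-1.41), EXOSC9 (-1.35, RNA exosome), UPF3A (-1.29) and OSBPL9 (-1.23). Of these 10 with RBMX, 3 were enriched: RBMX, RB1CC1 and OSBPL9. In the authors' deposited table B the 10 largest falls included, beside RPS23 and RPL15, those in AZI2 (-2.57), FAM166A, ZNF121 (-2.24), THUMPD3 (-2.08), PNISR, CCDC28A (-2.07) and REST (-2.06, the repressor of neuronal genes), and of the 10 only RPS23, RPL15 and FAM166A were enriched. The largest falls were thus mostly in windows whose enrichment over input did not pass the authors' FDR.

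Among gains, EIF2S2 and EIF2S3, the beta and gamma subunits of initiation factor eIF2, both had a high window in table A. EIF2S2 was at 2.01 (FDR = 0.000126, fold enrichment 3.03, chr20:34090600-34096745) and EIF2S3 at 1.19 (FDR = 1.07e-06, chrX:24060132-24062544) in the authors' deposited table A. Neither has a matching window in table B, and the 7 other EIF2S2 windows of the authors' deposited table A lay between -0.93 and 0.22, none called. The same EIF2S2 window was at -0.69 (FDR = 0.406) for sgMETTL16-2 in the authors' deposited table A.

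PLEKHA2 (1.51), the potassium channel KCNN4 (1.25), GNB1 (1.22), EMC1 (1.08), the actin cross-linker ACTN1 (1.08), GALNT14 (1.03) and the ubiquitin ligase HUWE1 (1.03) followed in the authors' deposited table A. The largest gains of the authors' deposited table B were in CHP1 (1.86), SLC25A17 (1.70, a peroxisomal carrier), PIGC (1.66), ASMTL (1.63), MEF2B (1.56, a transcription factor), RRP8 (1.52), HS6ST1 (1.49), ZNF263 (1.44), HMCES and ASB6 (1.24). No gene was among the 10 largest gains of both tables. As with the falls, many of these windows were not enriched over input by the authors' FDR. These were KCNN4, GNB1, ACTN1 and GALNT14 in table A, and CHP1, PIGC, RRP8, HS6ST1 and HMCES in table B.

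Ribosomal protein genes had larger shares of called genes than all genes in both tables and in both directions. Of the large subunit, 17 of 46 genes with a window were called lower and 3 higher in table A, and 5 of 43 lower and 7 higher in table B. Of the small subunit, 9 of 27 were lower and 1 higher in table A, and 4 of 20 lower and 5 higher in table B. The share over all genes was 1.39% lower and 0.368% higher in table A, and 0.76% and 2.51% in table B. These are the shares to set beside the counts of every list below. An enriched window, where most calls lay, was found on 35 of 46 large and 19 of 27 small subunit genes in table A. Over all genes it was found on 4626 of 15212 there. In table B it was found on 28 of 43 and 15 of 20, against 5339 of 14872 genes. The lists below differ in this too, and its part in the calls was not tested. After the shift with two-sided p-values the large subunit had 11 lower and 3 higher genes in table A, and 11 lower and 0 higher in table B. The small subunit had 5 lower and 1 higher in table A, and 4 lower and 2 higher in table B, so that in table B the direction with more called genes turned for both. These transcripts have many processed pseudogene copies, and how reads of the copies were assigned is not given in the sources used here, so their values are uncertain.

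Called ribosomal protein windows in table A were shallow, with 27 lower windows between -1.09 and -0.10 and a median of -0.20 in the authors' deposited table A. RPL26 (-0.42, FDR = 2e-18), RPS6 (-0.20, FDR = 5.01e-17), RPL32 (-0.32, FDR = 5.01e-13) and RPL23 (-0.29, FDR = 5.01e-12) had the smallest FDR values after RPL34 in the authors' deposited table A. Going the other way there, RPL3 was at 0.81 (FDR = 3.98e-32) and RPL10A at 0.52 in the authors' deposited table A. RPL26 differed between the tables (adjusted p = 2.75e-12), at 0.08 in the authors' deposited table B. RPS19, mutated in Diamond-Blackfan anaemia, was called at 0.24 in the authors' deposited table B and lay at -0.02 in table A (adjusted p of the difference = 8.06e-09). The median of all ribosomal protein windows was -0.11 in the authors' deposited table A and 0.00 in table B.

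**Figure D3:**
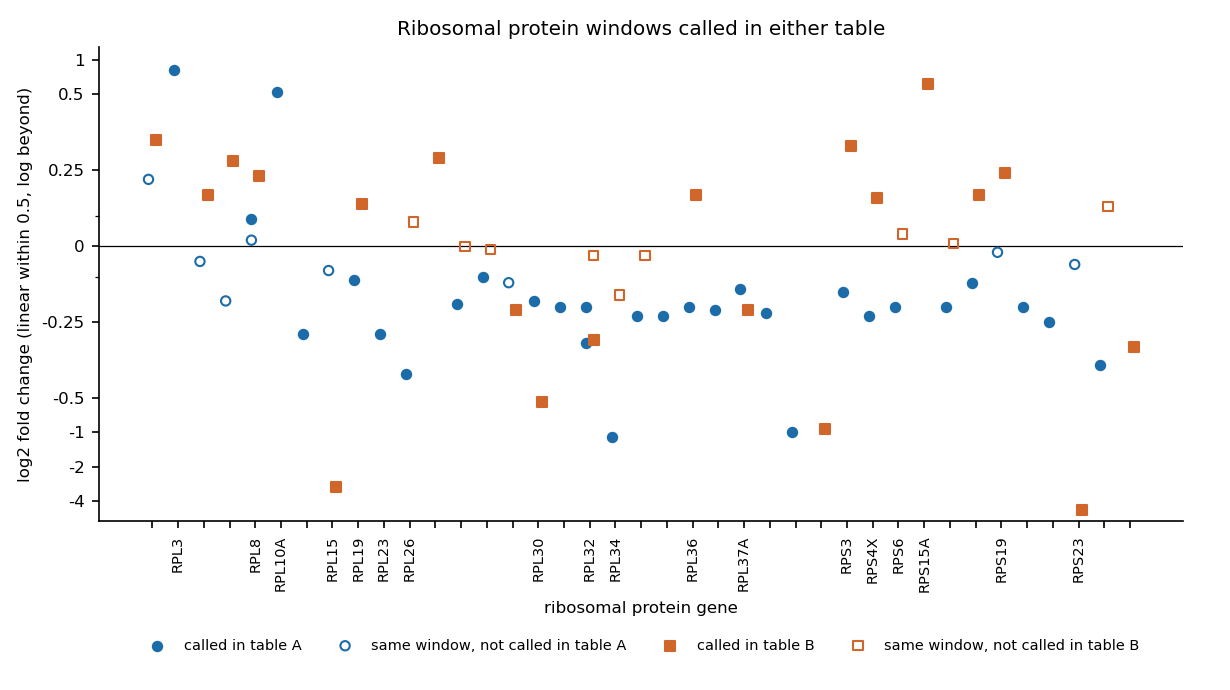
Log2 fold change of each called window of 39 of the 41 ribosomal protein genes with a call, those named in the text labelled, table A as circles and table B as squares, filled where called and open where the same window was not called in that table (the vertical axis is linear up to 0.5 and logarithmic beyond). Most circles sit between -0.10 and -0.42, and the squares spread from -4.75 (RPS23) to 0.61 (RPS15A).

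Of 54 initiation factor genes, 5 were lower and 3 higher in table A, and of 52, 1 was lower and 4 higher in table B, which the shift made 2 lower and 1 higher. The eIF3 subunits EIF3E (-0.47), EIF3H (-0.33) and EIF3A (-0.32 and -0.38) and the subunit-joining factor EIF5B (-0.62, FDR = 1.58e-16) were lower in the authors' deposited table A. EIF3A was higher in the authors' deposited table B, at 0.31 (FDR = 3.98e-18) in 1 window of 7 blocks and 1859 bases that spans both of the table A windows.

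TPT1, which also binds elongation factor 1, was lower at every call, 2 windows in table A and 3 in table B, between -0.23 and -0.44 in the authors' deposited tables. TPT1 has processed pseudogene copies too, and its values carry the same doubt. Of 33 aminoacyl-tRNA synthetase genes 2 were lower in table A (EPRS at -0.66 and DARS at -0.74) and 1 in table B (YARS, at -1.34 and -0.34) in the authors' deposited tables, and 0 were higher in either.

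Nucleolar genes included NCL, nucleolin, with both directions in 1 table: its 5′ side was called at -0.35 and -0.36 and its 3′ end at 0.45 in the authors' deposited table A. The authors' deposited table B gave 0.43 (FDR = 3.98e-47) for a window of 4 blocks that spans the 2 lower windows of table A. Of 26 genes of ribosome biogenesis and the nucleolus, 2 were lower and 2 higher in table A (NCL in both), and 0 lower and 5 higher in table B (3 after the shift), where NOP2, NOP56, PES1 and DKC1 were between 0.30 and 0.53 in the authors' deposited table B.

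Spliceosome genes, like all genes with a call, were mostly called lower in table A and mostly higher in table B, a difference not tested for the list. Of 39 spliceosome genes 6 were lower (15.4%, against 1.39% of all genes) and 0 higher in table A. Of 37, 1 was lower (2.7%, against 0.76%) and 7 higher (18.9%, against 2.51%) in table B. With the shift and two-sided p-values these were 5 lower in table A and 3 higher in table B. An enriched window was found on 25 of the 39 genes in table A, against 4626 of 15212 genes. In table B it was found on 30 of the 37, against 5339 of 14872. PNISR, LUC7L2, LUC7L3, RBM25, RBM39 and SNRPD2 made up the lower calls, between -0.23 and -0.78 in the authors' deposited table A. SF3B2, SF3A2, SNRNP70, U2AF2, ACIN1, RBM25 and LUC7L3 made up the higher ones, between 0.23 and 0.61 in the authors' deposited table B, so that only RBM25 and LUC7L3 were in both sets.

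Of 23 hnRNP genes, 1 was lower in table A (0 after the shift). In table B 1 was lower and 8 were higher (34.8%, against 2.51% of all genes), with 1 and 4 after the shift. An enriched window was found on 18 of the 23 there, against 5339 of 14872 genes. HNRNPU, a scaffold protein of nuclear RNA, was at 0.39 (FDR = 3.98e-21) in the window that reaches its start, and at 0.96 in a second one in the authors' deposited table B. The window of table A matched to it stops short of the start, was at -0.06 in the authors' deposited table A and differed (adjusted p = 7.81e-12). HNRNPM, HNRNPH1, HNRNPUL2, HNRNPAB, HNRNPD, HNRNPF and HNRNPA2B1 had the other higher windows, between 0.25 and 0.80 in the authors' deposited table B. HNRNPA2B1, which is also named as an m6A reader, had a lower window beside its higher one, at -0.41 in the authors' deposited table B, as well as one at -0.22 in table A.

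Of 27 writer, eraser and reader genes of m6A 3 were lower in table A (11.1%, against 1.39% of all genes), YTHDC1, the nuclear reader, at -0.71, ZC3H13 and HNRNPA2B1, in the authors' deposited table A. Of 26 in table B, 1 was lower (HNRNPA2B1) and 3 were higher (11.5%, against 2.51%), RBM15B, of the writer complex, at 0.35, ZC3H13 and HNRNPA2B1, in the authors' deposited table B. After the shift 2 were lower in table A, and 1 was lower and 1 higher in table B. Genes of nonsense-mediated decay were called lower alone: UPF3A, UPF3B and MAGOH of 15 in table A, and UPF3B of 15 in table B. UPF3B had a second lower window, at -0.59, in the authors' deposited table A. It lay within the span of a longer window that was at 0.30 (FDR = 0.16) in the authors' deposited table B. The UPF3A window in table A had a fold enrichment of 10.4 and was still not enriched by the FDR in the authors' deposited table A, and a window of table B with the same end, over more of the gene, was at 0.09. In messenger RNA export, THOC2 (-0.58) and THOC7 (-0.58) were lower and the helicase DDX39B (0.70) higher in the authors' deposited table A.

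Of 26 RNAs on a list of abundant and nuclear long non-coding RNAs 5 were lower in table A (MALAT1, NEAT1, TUG1, GAS5 and SNHG3). Of 25, 3 were lower in table B (MALAT1, NEAT1 and SNHG1), and 0 were higher in either. The lower shares were 19.2% and 12%, against 1.39% and 0.76% of all genes. The called windows of GAS5 and SNHG3 were not enriched. Enriched windows alone left 3 lower in table A and 2 in table B. After the shift 2 were lower in table A and 3 in table B. LINC00926, which is not on the list, was called higher in table B, at 0.34 in the authors' deposited table B. MALAT1, of nuclear speckles, had 2 windows at -0.62 (FDR = 3.16e-23) and -0.66 (FDR = 5.01e-36) in the authors' deposited table A. The second, further downstream (chr11:65500129-65500819), was at 0.00 (FDR = 0.658) in the matched window of the authors' deposited table B, while the first contains a window called at -0.51 there (chr11:65499620-65499800). NEAT1, the scaffold RNA of paraspeckles, was at -0.34 and -0.43 in overlapping windows in the authors' deposited tables. The list's median of gene means was -0.22 in table A and 0.03 in table B, beside 0.00 over all genes in each.

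Of 47 bromodomain and chromatin-remodelling genes 13 were higher (27.7%, against 2.51% of all genes) and 1 (CHD2) lower in table B. In table A 0 were higher and 1 (NCOR1) lower. These genes had 8.32 windows each in table B, against 4.8 over all genes. An enriched window was found on 39 of the 47, against 5339 of 14872 genes. What these differences add to the calls was not tested. After the shift 3 of the 13 were left by count, and 11 with two-sided p-values alone. The 13 included ARID1A, SMARCA4 and SMARCC2 (SWI/SNF), CHD3, CHD4, HDAC1, MBD3 and GATAD2A (NuRD), BRD3, KAT6A and DNMT1, and all 13 lay between 0.27 and 0.71 in the authors' deposited table B. HDAC1, a histone deacetylase, was at 0.69 (FDR = 1.23e-10) in the authors' deposited table B and -0.22 in table A (adjusted p of the difference = 2e-09). Of 42 Polycomb and histone methyltransferase genes, table B had CBX6 (0.47) and SETD5 (0.38) among the higher genes (0 higher after the shift) and WHSC1L1 (-1.06) and SETDB2 (-0.86) lower in the authors' deposited table B, and table A had BMI1 lower at -0.21 in the authors' deposited table A. Of 36 ZBTB genes 0 were called in either table, and of 377 and 368 ZNF genes 1 and 5.

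Of cell cycle genes, 5 of 47 were lower in table A (CENPF, SMC3, SMC4, MCM3 and TOP2A, 1 left after the shift). In table B 1 of 48 was lower (TOP2A, in a window that was not enriched) and 6 were higher (MCM2, MCM3, RAD21, SMC1A, MKI67 and CDKN1B, 2 left). The lower share in table A was 10.6%, against 1.39% of all genes, and the higher share in table B 12.5%, against 2.51%. SMC4, of condensin, was at -0.67 (FDR = 2.24e-07) in the authors' deposited table A. Of DNA repair genes 0 of 36 were called in table A, and in table B MSH6, MDC1, PARP1 and DDB1 were higher and RPA2 and ERCC2 lower, the last 2 at -1.53 and -1.62 in windows that were not enriched in the authors' deposited table B. The higher and lower repair genes were 11.4% and 5.71% of 35, against 2.51% and 0.76% of all genes. After the shift 1 was higher and 2 were lower. Of the list of p53 and apoptosis genes CYCS alone was called, at -0.50 in the authors' deposited table A.

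**Figure D4:**
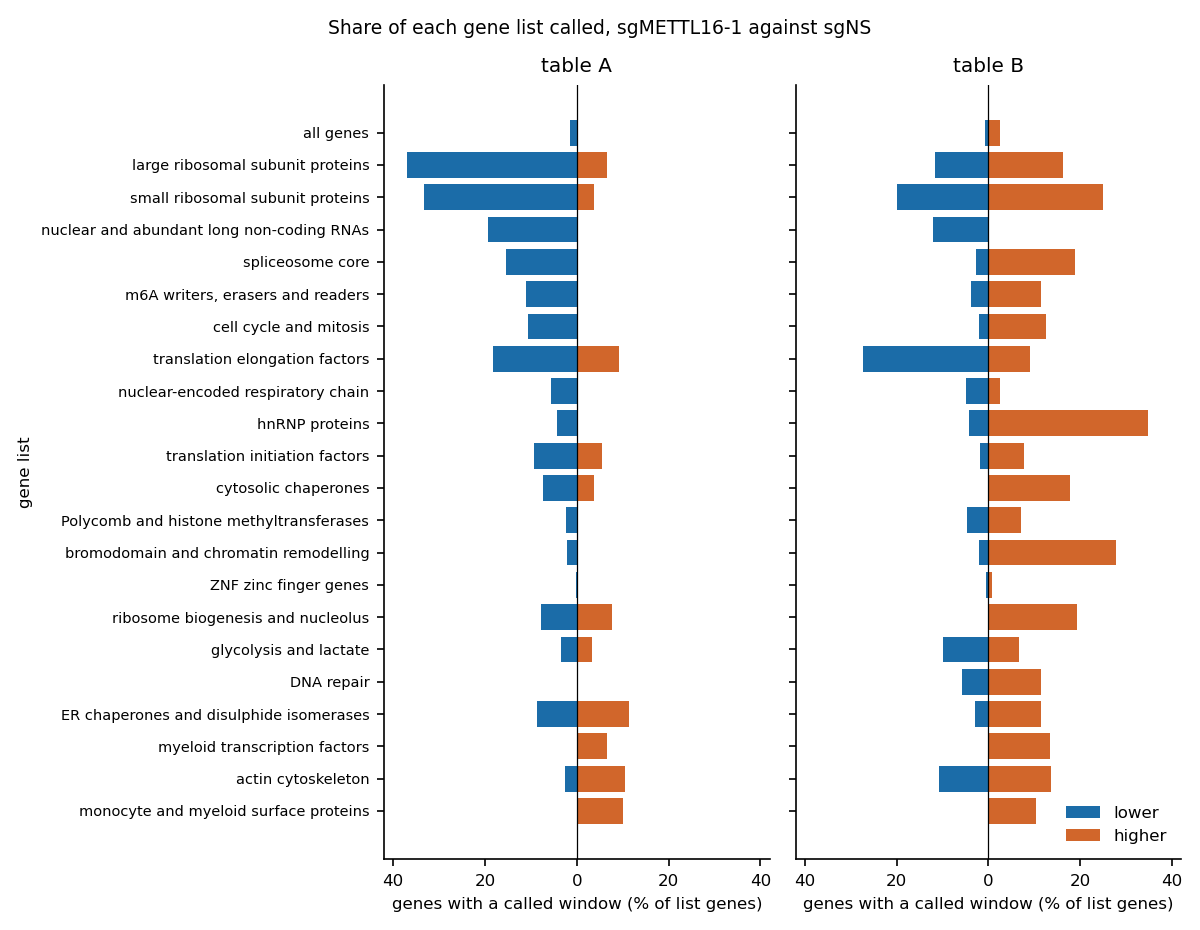
Share of the genes with a window in each table that had a window called lower (to the left) or higher (to the right), for the lists with at least 6 called genes over both tables and for all genes, as bars in % of the list's genes. The ribosomal protein lists have the longest lower bars in table A, the hnRNP and chromatin-remodelling lists the longest higher bars in table B, and the bars of all genes are short in both.

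On the lists of myeloid transcription factors and surface proteins the calls were higher in both tables, while of 28 granule and lysosome genes 2 were lower and 1 of these also higher in table B. Of 30 transcription factor genes 2 were higher in table A and 4 in table B, but after the shift 2 were lower and 1 was higher in table B. CEBPA and the AP-1 factor FOSL2 (0.80) were higher in table A, and CEBPA, JUN (0.80), ZEB2 (0.41) and FLI1 (0.43) in table B, in the authors' deposited tables. Of 30 surface genes IL4R, SELPLG (0.37) and ITGB2 (0.75, the integrin chain of leukocytes) were higher in the authors' deposited table A. IL4R, SIRPA (0.34, the receptor of the don't-eat-me signal) and IL17RA (0.63) were higher in the authors' deposited table B, and after the shift 0 of them were called. ITGB2 differed between the tables, with -0.09 in the authors' deposited table B. MEN1 (1.05) was higher in the authors' deposited table B and PSIP1 (-0.46) lower in table A, both of them partners of KMT2A, in the authors' deposited tables, while the HOXA genes and MEIS1 on the same list were not called. CTSD, cathepsin D, had windows in both directions within the authors' deposited table B, at 0.26 (FDR = 6.31e-25), -0.18 (FDR = 3.98e-21) and 0.45 (FDR = 2e-19).

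B2M, the light chain of class I antigen presentation, was at -0.23 (FDR = 1.26e-18) and -0.36 (FDR = 0.0195) in overlapping windows of different length in the authors' deposited tables. MAVS, the mitochondrial adaptor of RNA sensing, was at -0.91 and IFI16 at -0.47 in the authors' deposited table A, and ADAR, the RNA editing enzyme, at 0.45 in table B. IRF2BP2 was higher in both of the authors' deposited tables, at 0.22 and 0.17.

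Chaperones of the endoplasmic reticulum were called in both directions, 3 lower and 4 higher of 35 in table A and 1 lower and 4 higher in table B (1 and 2 after the shift). HSP90B1 had 3 lower windows, each at -0.31, in the authors' deposited table A, and the matched windows were at 0.19, 0.19 and 0.31 in table B, of which the last alone was called. CALR was higher in 3 windows, which the authors' deposited table B puts at 0.28, 0.37 and 0.44. PDIA6 (0.48) and the segregase VCP (0.75) were higher in the authors' deposited table A alone. Of 27 genes on the list of cytosolic chaperones, which also holds the mitochondrial chaperone HSPD1, 2 were lower and 1 higher in table A. Of 28, 0 were lower and 5 higher in table B, among them HSPD1 (0.95), BAG1 (0.66) and HSP90AB1 (0.28) in the authors' deposited table B, which the shift made 1 lower and 2 higher.

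Of 30 glycolysis genes, 1 was lower and 1 higher in table A, and 3 were lower (10%) and 2 higher (6.67%) in table B, against 0.76% and 2.51% of all genes there. The lactate dehydrogenase genes LDHA (-1.28) and LDHB (-0.88) and the transketolase TKT (-0.81) were lower, and ALDOA (0.62) and ENO1 (0.38, 0.46 and 0.28) higher, in the authors' deposited table B. With enriched windows alone 1 of the 3 lower genes was left there, and after the shift 4 were lower and 2 higher. ENO1, enolase, was also higher in table A, at 0.44 in the authors' deposited table A, in another window, and the matched table B window that was at 0.46 lay at 0.02 there (adjusted p of the difference = 2.38e-08). Of respiratory chain genes and their assembly factors, 5 of 90 were lower (5.56%, 1 gene after the shift) and 0 higher in table A, and 4 of 81 were lower and 2 higher in table B. No gene was lower in both, and the lower calls ran from COX7B at -0.22 to NDUFA6 at -1.19 in the authors' deposited tables. Of 27 genes of S-adenosylmethionine and polyamine metabolism, 3 were lower (11.1%) and 1 higher in table A, and of 28, 1 was lower and 0 higher in table B. SRM, spermidine synthase, was at -0.84 (FDR = 1.86e-05), ADI1 at -0.45 and OAZ1 at 0.43 in the authors' deposited table A, beside MAT2A. Of branched-chain amino acid genes MCCC1 alone was called, at 1.11 in the authors' deposited table B.

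Amino acid transporters (SLC7A1 at 0.78, SLC38A10 and SLC1A5 at 0.28) and stress response genes (ATF4 at 0.35, PPP1R15A at 0.33 and DDIT4 at 0.26) were called in table B alone, all higher in the authors' deposited table B. These were 3 of 20 genes on each list (15%, against 2.51% of all genes). After the shift 1 transporter and 0 stress response genes were higher in table B, 1 stress response gene was lower there, and 1 transporter was higher in table A. ATF4 is the transcription factor of the integrated stress response, and the other 2 are known to be induced with it. Of the iron and heme, lymphoid and erythroid lists 0 genes were called in either table, and 0 mitochondrially encoded genes had a window.

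Of 38 actin cytoskeleton genes 1 was lower and 4 higher in table A, and of 37, 4 were lower and 5 higher in table B (4 and 1 after the shift). In table A FLNA (0.87), ACTN1 (0.54 and 1.08), MYH9 (0.62) and CAPZB (0.43) were higher and TMSB10 (-0.25) lower in the authors' deposited table A. In the authors' deposited table B FLNA was lower at -0.48 in another window, and MYH9, non-muscle myosin, had 3 higher windows (0.22 to 0.30) and a lower one (-0.53) at its 3′ end. ACTB was higher (0.11 and 0.42) and its near-identical partner ACTG1 lower (-0.23 and -0.19) in the authors' deposited table B, and how reads shared by the 2 were assigned is not given in the sources used here. KCNAB2, a potassium channel subunit, and ADGRA2, an adhesion receptor, were the other genes with 3 higher windows in table B, at 0.24 to 0.37 and at 0.20 to 0.43 in the authors' deposited table B.

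Called windows had another shape than the rest, and the higher windows of table B stood apart in length. Of enriched windows, 78.8% of those called lower and 71.2% of those called higher in table A had more than 1 block, that is, spanned an exon junction, against 43.7% of uncalled ones. In table B these were 50.8%, 63.2% and 44.2%. The enriched windows called higher in table B had a median length of 592 bases, and 20.8% were 1000 bases or longer, against 386 bases and 5.78% of uncalled ones. Enriched windows called lower in table B had a median length of 180 bases. The part of window length in the calls was not tested.

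Enrichment by the FDR held for 80.3% of lower and 88.1% of higher windows in table A, and for 54.6% and 94.7% in table B, against 7.83% and 11.3% of uncalled ones. The median fold enrichment of called windows was between 1.37 and 1.75 in the authors' deposited tables, and that of uncalled ones 1.67 in table A and 1.74 in table B. Called windows were thus mostly enriched with confidence and not by a high fold.

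A larger share of the gains of table B than of its other windows reached a transcript start, a difference that was not tested. Among enriched windows of genes in the RefSeq promoter table, 38 of 250 called higher (15.2%) overlapped the first 50 transcribed bases, against 5.26% of those called lower and 8.34% of uncalled ones. In table A the shares were 8.57% of 35 higher windows, 4.9% of lower and 5.67% of uncalled ones. GGAC stands in the first 50 bases of 18.7% of all genes in the promoter table. Enriched m6A windows at a transcript start can also hold m6Am next to the cap, which m6A antibodies bind too, and the windows do not tell the marks apart. This measure was chosen after the values were seen, and window length, which raises the chance to reach a start, differs between the groups.

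**Figure D5:**
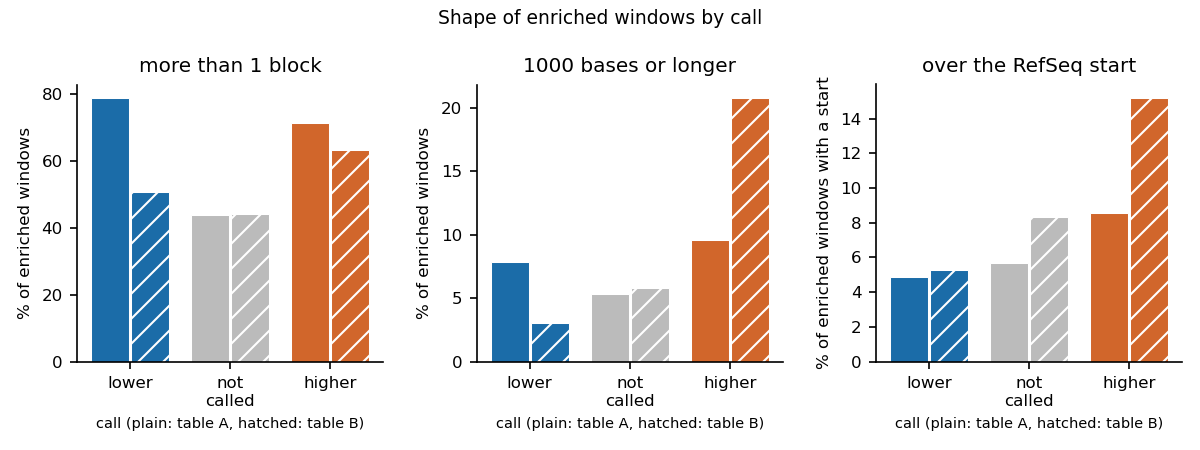
Shape of enriched windows called lower, not called or called higher, as the % with more than 1 block, of 1000 bases or longer, and over the first 50 transcribed bases of the RefSeq start, table A plain and table B hatched. The higher windows of table B have the tallest bars for length (20.8%) and start (15.2%), and the lower windows of table A the tallest for blocks (78.8%).

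By the share on 1 side of 0, the other enriched windows of genes with a call leaned the same way in 3 of 4 groups. This measure was also chosen after the values were seen. In genes called lower in table A, 74.2% of their 151 other enriched windows were below 0, against 54.8% in genes with no call. In genes called higher, 58.5% of 65 were above 0 in table A (45.1% in genes with no call), and 73.4% of 418 in table B (65.8%). The median in table B was 0.12 both in genes called higher and in genes with no call, so the size of change did not differ there. In genes called lower in table B, 35.8% of 106 other enriched windows were below 0, close to the 34.2% of genes with no call. Windows of 1 gene share its input reads and are not independent, so no test is given.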

How the data were processed

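Input and m6A IP libraries of poly(A) RNA (TruSeq Stranded mRNA, Illumina HiSeq, per the labels' protocols) were processed by the authors with STAR on GRCh38 (per the submitters' processing notes). Which peak caller, annotation and sgNS libraries made each table is not given in the sources used here. Values of all 4 tables were taken as deposited. Per the file headers, the authors give the knockout-to-control difference as log2, its p and FDR as log10, the log10 p and FDR of IP over input (which reach minus infinity and were treated as a score), and the fold enrichment as a ratio. Deposited starts count from 0 and are given here from 1. No value per library is in these tables, so depth is unknown and no paired or per-sample test was run.

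A call is a deposited FDR under 0.05. Windows were matched 1 to 1 where chromosome, strand and gene name were the same and at least 0.5 of the bases of each, over blocks, were shared. The difference between tables was tested two-sided by a normal approximation, with standard errors from the deposited p-values (read as one-sided, since among enriched windows none is above 0.684 and 0.738; a z of at least 0.1 in both tables was required) and Benjamini-Hochberg adjustment. Deposited FDR values are not a plain adjustment over all windows, which would call 264 and 484 windows against 282 and 535. Rows that share blocks, 239 in each table, were kept.

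Genes named are METTL16 and MAT2A; genes called in both tables by window; in each table and direction the 10 largest changes, over all and over enriched windows; genes with 3 or more windows called in 1 direction; the 10 windows in each direction with the smallest p of the difference; and called members of 47 gene lists. Other genes, such as LAPTM5, those called in both tables in different windows and those whose first bases are shown, were chosen after their values were seen. Called genes that this rule does not name, and a few that it does, are not reported here. The members and lists were chosen with earlier results of these data known. Alternatives were other FDR, fold and overlap thresholds, enriched windows alone, two-sided p-values, a shift by the enriched median, rows of the same blocks counted once, and, added after seeing the data, one-sided p-values with the FDR recomputed and two-sided or shifted gene counts. Steps were tested on simulated data. Python 3.11.15, numpy 2.4.6, pandas 2.3.3, scipy 1.17.1 and matplotlib 3.10.9 were used.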

Additional observations from a re-analysis of the deposited data

How the results depend on the processing

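No paired analysis was possible because the tables hold no value per library. Counts below are in the order lower and higher in table A, then lower and higher in table B (223, 59, 119 and 416 as reported). They were 131, 38, 60 and 251 with an FDR of 0.01, 26, 11, 54 and 29 with changes of 1 or more on the log2 scale, and 27, 11, 11 and 126 when fold enrichment had to reach 2. Enriched windows alone gave 65 lower in table B, two-sided p-values gave 77 lower in table B, and the shift gave 114 lower in table A and 86 higher in table B. Windows lower in both, higher in both and opposite (9, 4 and 20) became 0, 0 and 0 with changes of 1 or more on the log2 scale, 0, 2 and 0 when fold enrichment had to reach 2, and 4, 2 and 9 with an overlap of 0.8. An overlap of 0.25 gave 15 lower in both. An FDR of 0.01 gave 2 higher in both and 12 opposite, two-sided p-values 2 higher in both, and the shift 1 higher in both and 5 opposite. With table A or table B left out, the counts in both become those of the remaining table, 119 to 223 lower and 59 to 416 higher.

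Windows that differ between the tables (246) were 112 with an overlap of 0.8, 108 after the shift and 154 with an adjusted p of 0.01. Genes lower in table A alone, in table B alone and in both, and higher in both (191, 93, 20 and 13) were 113, 48, 9 and 8 with an FDR of 0.01. Enriched windows alone gave 46 lower in table B alone, two-sided p-values gave 59 there, and the shift gave 89 lower in table A alone and 6 higher in both. Of the 20 and 13 genes, 12 and 5 kept their calls after the shift, which added CXCR4, EIF3H, PABPC1 and THOC2 on the lower and CTSD on the higher side. Among 184 named windows, called or not, 22 lost their call with two-sided p-values, 62 after the shift and 44 with an FDR of 0.01. The rest stayed as they were, which includes windows that had no call to lose. Counts not given here stayed within 1.5 times. Of the list counts under the alternatives, 162 moved by more than that and 590 did not. The 590 include the many counts of 0 that stayed 0, so they do not measure how stable the other counts are. The cause of these moves was not tested. Depth per library is unknown, so its limit on each value cannot be given.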
